A study of Mus musculus with 4 samples.

Results

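The core circadian clock genes of the mouse were followed in fetal brain after 2 kinds of maternal undernutrition. The set holds 10 genes, namely Arntl, Clock, Per1, Per2, Per3, Cry1, Cry2, Nr1d1, Nr1d2 and Dbp. They were taken as every non-control probe whose gene name in the scanner files is one of these symbols. That gave 18 probes of 60 bases out of 41174 on the array, which carry 28104 genes or file names in all.

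Pools of RNA from whole brains of C57BL/6J fetuses were compared on 2-colour Agilent arrays. The food deprivation pool (FD) came from fetuses whose dams had no food overnight on gestation day 17. The food restriction pool (FR) came from fetuses whose dams received 50% of the control chow intake from gestation day 10 to 17. Both kinds of pool were set against pools from dams fed ad libitum, called the control of FD and the control of FR here, and whether these were one pool or 2 is not stated. Caesarean sections were made on gestation day 18 between 10 and 12 in the morning, a day and hour that the design text names for FR and leaves implicit for FD. Lights went on at 8 in a cycle of 12 h light and 12 h dark, so that window lies 2 to 4 h after lights on. Each pool held RNA of 5 fetuses, and the number of litters is not given.

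The 4 arrays form 2 dye swaps. On array 1 of a swap the treated pool was labelled with Cy5, and on array 2 with Cy3. Both arrays hold the same pair of pools, so n = 1 on either side and nothing could be tested. All values below are log2(treated/control) with the swapped array turned, unless a level is named. A level is the log2 signal of 1 channel after normalisation within and between arrays, and levels are compared between pools for 1 probe, never between probes. Each array had 43379 spots, of which 71.4 to 85.3% per channel were well above background. Of the defining markers, those of neurons stood at a mean log2 level of 11.64 in FD against 11.70 in the control of FD, and of 11.59 in FR against 11.63 in the control of FR, over 6 genes measured on all arrays. Single neuron genes had mean ratios between -0.33 and 0.084 in FD and between -0.35 and 0.27 in FR. Of 6 neural progenitor genes, 3 were measured in FD, with a median ratio of -0.103 and a range of -0.24 to -0.025. In FR 4 were measured, with a median of -0.173 and a range of -0.44 to 0.135. A fall or gain in a bulk sample can be fewer or more cells of a type as well as less or more RNA per cell, and these cannot be told apart.

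In the mammalian clock, the proteins of Arntl (also called Bmal1) and Clock bind together to E-box sequences and switch on the Per and Cry genes, whose proteins then gather and inhibit that pair. In a further loop the same pair drives Nr1d1 and Nr1d2, the nuclear receptors REV-ERB alpha and beta, which repress Arntl through RRE elements. Dbp is an output transcription factor of the pair that acts through D-boxes, among them sites in Per genes. The suprachiasmatic nucleus of the hypothalamus holds the central clock, which in rodents is assembled late in gestation and receives timing signals from the dam, while meal time sets clocks in many other tissues.

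The letters of these elements were looked for in the promoters of the set, since they are the sequences by which its members act on each other. RefSeq promoter windows on GRCm38.p6, reaching from 250 bases before to 50 bases after a gene start, were found for 9 of the 10 genes; Per2 is not among the windows used here. Both strands were searched, and positions count from the gene start. In each line below, capitals mark the matched letters and 10 bases are shown on either side, written along the gene.
Cry1 E-box, CACGTG, chr10:85185099-85185124, minus strand: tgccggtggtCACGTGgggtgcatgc
Per1 E-box, CACGTG, chr11:69098773-69098798, plus strand: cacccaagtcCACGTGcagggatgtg
Nr1d1 E-prime-box, CACGTT on the opposite strand, chr11:98775390-98775415, minus strand: cacagatctcAACGTGccggctgctg
Cry1 E-prime-box, CACGTT on the opposite strand, chr10:85185118-85185143, minus strand: acacttcagaAACGTGaggtgccggt
Cry2 E-prime-box, CACGTT on the opposite strand, chr2:92434220-92434245, minus strand: acatggtgggAACGTGagggggcgga
Per3 D-box, TTATGTAA, chr4:151044853-151044880, minus strand: gacccgcgcgTTATGTAAggtactcggg
Per3 D-box, TTATGTAA, chr4:151044806-151044833, minus strand: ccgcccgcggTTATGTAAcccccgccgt
Arntl RRE, AGTAGGTNA, chr7:113207493-113207521, plus strand: ttggtcggaaAGTAGGTTAgtggtgcgac
Arntl RRE, AGTAGGTNA, chr7:113207529-113207557, plus strand: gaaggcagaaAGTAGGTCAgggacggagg

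The E-box CACGTG was present in 7.15% of all 32851 RefSeq windows of this length, and in those of Cry1, at position -60, and Per1, at position -166. The variant CACGTT was in 4.68% of windows and in those of Cry1, Cry2 and Nr1d1. The D-box TTATGTAA was in 0.938% of windows, and among the 9 genes the window of Per3 held it, with both copies shown above. The RRE letters were in 0.591% of windows, and among the 9 genes in that of Arntl, also with both copies shown. The windows of Clock, Nr1d2 and Dbp held none of the 4 motifs, which says only that these letters are not in the 300 bases of each window. A match is a description of the letters and not a bound site.

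Over the set, more members were higher than lower under both diets, by small amounts. A probe was counted as measured where every channel reading of a comparison was flagged as well above background and neither array carried an outlier flag. Where a gene had several measured probes, the brightest was used. That left 9 of 10 genes in FD and 10 of 10 in FR, with Per3 above background in both channels on 2 of the 4 arrays. None of the members passed 1.5-fold (0.58 on the log2 scale) on both arrays in either direction. That held in FD, where 0.0892% of 17945 measured genes passed as higher and 0.128% as lower, and in FR, where 0.583% of 18539 passed as higher and 0.432% as lower. At 1.2-fold (0.26) on both arrays, 0 of 9 members passed in FD, beside 1.18% of all genes higher and 1.00% lower. In FR, 3 of 10 members were higher by that rule, namely Nr1d2, Cry1 and Per2, and 0 were lower, beside 3.85% of all genes higher and 4.20% lower. With normexp fitted on all spots 0 of 10 passed, since array 2 then gave 0.071 for Nr1d2, 0.016 for Cry1 and 0.026 for Per2. With median centring in place of loess 0 of 10 passed as well. Fewer genes of any kind passed under these settings. Past 1.5-fold in FR, 108 genes were higher and 80 lower as reported, 9 and 4 with normexp on all spots, and 31 and 6 with median centring. Shares of all genes at 1.2-fold were not counted under either, so the loss cannot be called particular to the members.

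The sign alone gives a weaker description. Across all measured genes, the ratios of arrays 1 and 2 correlated at r = 0.131 in FD and r = 0.409 in FR. The 2 arrays of a swap thus shared little of their ratios, above all in FD, though they hold the same pools. In FD, 5 of 9 members were above 0 on both arrays (Arntl, Clock, Per2, Cry1 and Nr1d2) and 0 were below 0 on both, beside 25.5% of all genes higher and 23.3% lower. With median centring 0 of 9 were above 0 on both arrays, as array 2 then gave -0.40 for Arntl, -0.43 for Clock, -0.18 for Per2, -0.079 for Cry1 and -0.24 for Nr1d2. In FR, 4 of 10 were above 0 on both arrays (Per2, Cry1, Nr1d2 and Dbp) and 0 were below, beside 28.3% and 27.4% of all genes. With median centring 3 of 10 were above 0 on both arrays, namely Per1, Cry1 and Cry2, and Nr1d1 was below 0 on both. The share of all genes by sign was not counted under median centring, so these member counts have nothing to be set beside. Over all probes, 10 of the 17 member probes measured in FD were above 0 on both arrays and 0 below, beside 24.1% and 25.4% of 25771 probes. In FR the same counts were 10 and 0 of 18, beside 28.1% and 27.6% of 25975 probes. Probes of 1 gene share their transcript and are not independent. The median over the measured members was 0.13 in FD, against 0.004 over all genes, and 0.21 in FR, against 0.005 over all genes. The FR median was carried by array 2, where it was 0.20, while on array 1 it was 0.003.

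**Figure D1:**
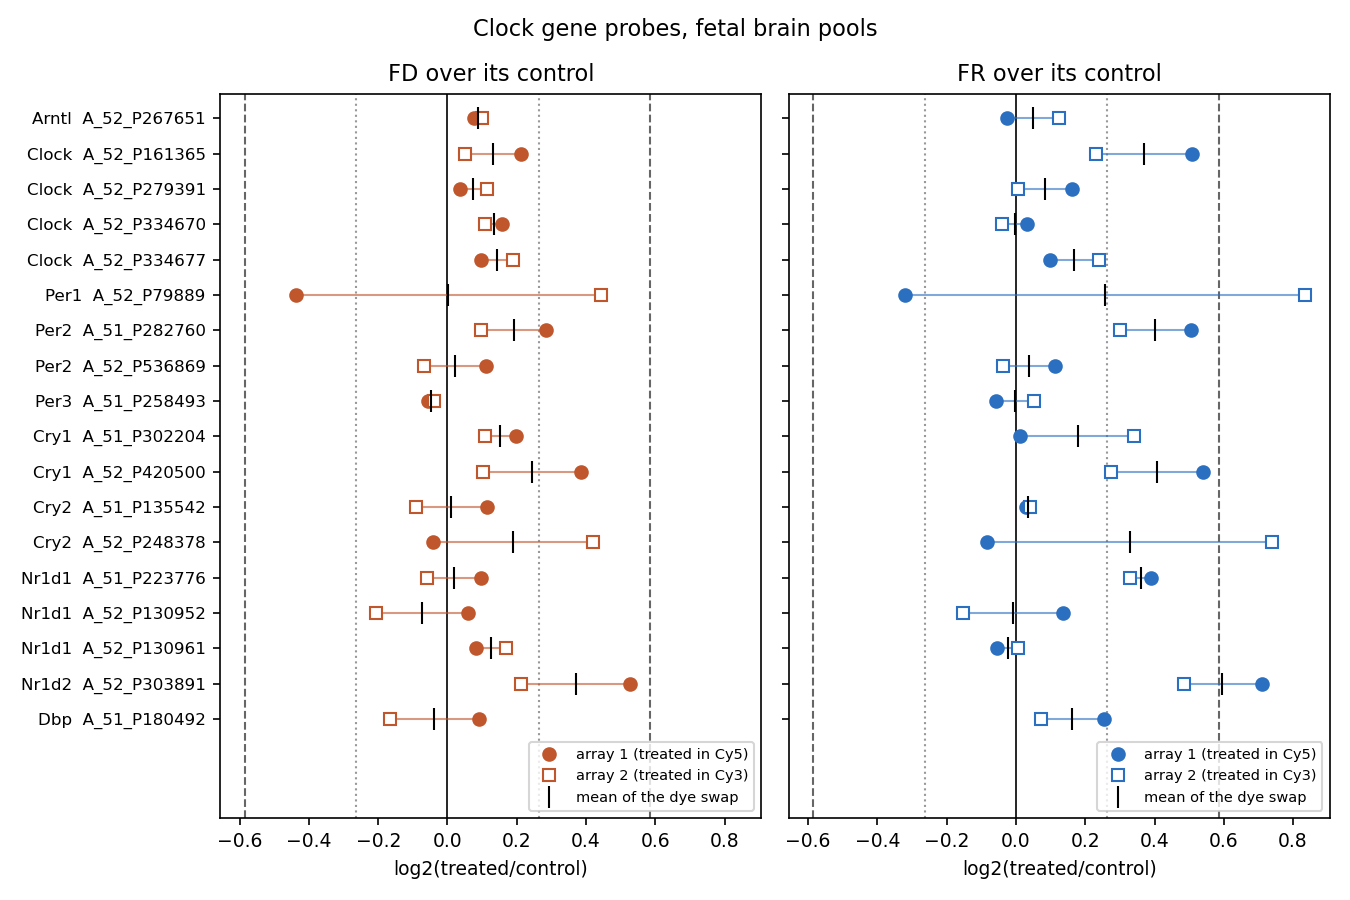
The 18 clock gene probes, with log2(treated/control) on the horizontal axis for FD (left) and FR (right). Filled circles are array 1, open squares are array 2, black ticks are their mean, and the dotted and dashed lines mark 1.2-fold and 1.5-fold. Nr1d2 has the highest mean in both panels, and Per1 spans the widest gap between its arrays.

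Nr1d2, which encodes the repressor REV-ERB beta, had the largest mean ratio of the set under both diets. Its probe lies at chr14:19037253-19037312 on the minus strand of mm9, the build of the array files, which give no exon or untranslated region for any probe. In FD its log2 ratios were 0.53 on array 1 and 0.21 on array 2, with a mean of 0.37 or 1.29-fold. In FR they were 0.71 and 0.48, with a mean of 0.60 or 1.51-fold. All 4 values were above 0, and array 1 gave the higher value in both swaps. Against all measured genes, the mean was above that of 99.1% of genes in FD and of 99.1% in FR.

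The levels of Nr1d2 separated treated from control pools on every array. They were 8.99 and 8.91 in FD, against 8.46 and 8.70 in the control of FD, and 9.25 and 9.11 in FR, against 8.54 and 8.62 in the control of FR. Both control pools averaged 8.58, and their values overlapped. The order by mean was FR, then FD, then both controls, and the values of FR did not overlap those of FD. FD lay below FR by 0.18 on arrays of the first dye orientation and by 0.27 on those of the second when each was taken over its own control. The value on array 2 of FR is below the 1.5-fold limit of 0.58. With normexp without an offset, an alternative chosen after the data were seen, the FR values were 0.79 and 0.60, and with the scanner's own log ratio they were 0.80 and 0.64, so that Nr1d2 passed 1.5-fold on both arrays under either.

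Its paralog Nr1d1, which encodes REV-ERB alpha, was represented by 3 dim probes, whose signals were 1.3 to 4.5 times their local background. In FR, probe A_51_P223776, the farthest downstream, was higher by 0.39 and 0.33, and it passed 1.2-fold on both arrays. Probe A_52_P130952, 3103 bases downstream of A_52_P130961, gave 0.14 and -0.15 in FR. Probe A_52_P130961, the farthest upstream and the brightest of the 3 over the FR arrays, gave -0.055 and 0.007. The probes of Nr1d1 thus disagreed in FR by more than the gap between arrays of any of them, and no single value stands for the gene.

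In FD the same probes of Nr1d1 had means between -0.074 and 0.13. A_51_P223776 gave 0.096 and -0.058, A_52_P130952 gave 0.058 and -0.21, and A_52_P130961 gave 0.083 and 0.17. The first of them maps to 503 bases of genome, chr11:98630526-98631028 on the minus strand of mm9, for its 60 bases, so it spans an intron and cannot match unspliced RNA as a whole. It was the brightest of the 3 over the FD arrays, so the value used for Nr1d1 rests on different probes in FD and FR. Its levels averaged 6.69 in FD against 6.67 in the control of FD, and 6.86 in FR against 6.49 in the control of FR.

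Probe sequences are given for genes whose probes differ in the size or the sign of their ratios. Each reads another stretch of the transcript than a further probe of its gene. For Cry1 the probes differ in size only. They are from the array files and are in lower case throughout.
Nr1d1 A_51_P223776, mm9 chr11:98630526-98631028, minus strand: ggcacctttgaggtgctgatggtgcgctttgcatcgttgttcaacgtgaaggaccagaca
Cry1 A_51_P302204, mm9 chr10:84606495-84606554, minus strand: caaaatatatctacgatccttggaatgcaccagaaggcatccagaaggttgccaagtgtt
Cry2 A_51_P135542, mm9 chr2:92254083-92256348, minus strand: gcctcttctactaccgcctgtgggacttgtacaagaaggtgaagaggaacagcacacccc
Per2 A_52_P536869, mm9 chr1:93336538-93336597, minus strand: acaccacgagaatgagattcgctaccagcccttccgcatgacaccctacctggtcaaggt
Clock A_52_P161365, mm9 chr5:76683410-76683469, minus strand: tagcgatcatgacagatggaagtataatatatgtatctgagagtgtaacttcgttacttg

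Cry1, a repressor of the Arntl and Clock pair, was higher on the brighter of its probes under both diets. Probe A_52_P420500, at mm9 chr10:84594731-84594790, gave 0.39 and 0.10 in FD, with a mean of 0.24. In FR it gave 0.54 and 0.28, with a mean of 0.41 or 1.33-fold. Its levels were 7.67 and 7.58 in FD, against 7.28 and 7.48 in the control of FD, and 7.87 and 7.54 in FR, against 7.33 and 7.27 in the control of FR. Neither treated pool overlapped its control, while FR and FD overlapped each other, as did both controls.

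The other Cry1 probe, A_51_P302204, lies 11764 bases upstream along the gene and was dimmer. It gave 0.20 and 0.11 in FD, a mean of 0.15, and 0.013 and 0.34 in FR, a mean of 0.18. All 8 values of Cry1 over both probes were above 0, but in FR array 1 of this probe was close to 0. The mean of the brighter probe was above that of 96.7% of measured genes in FD and 97.1% in FR.

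Per2, the Per gene with 2 probes, differed between them. Probe A_51_P282760, at mm9 chr1:93313046-93313105, gave 0.29 and 0.097 in FD, with a mean of 0.19. In FR it gave 0.50 and 0.30, with a mean of 0.40 or 1.32-fold. Levels by this probe were 8.02 and 7.87 in FD, against 7.73 and 7.78 in the control of FD, and 8.28 and 8.14 in FR, against 7.78 and 7.84 in the control of FR. The order was FR, then FD, then both controls, whose values overlapped each other and neither treated pool.

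Probe A_52_P536869 of Per2, 23492 bases upstream along the gene, gave 0.11 and -0.068 in FD, a mean of 0.021, and 0.11 and -0.038 in FR, a mean of 0.038. Each treated pool overlapped its control on this probe. Its levels averaged 6.74 in FD against 6.72 in the control of FD, and 7.24 in FR against 7.20 in the control of FR. The higher reading of Per2 therefore rests on 1 of its 2 probes.

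**Figure D2:**
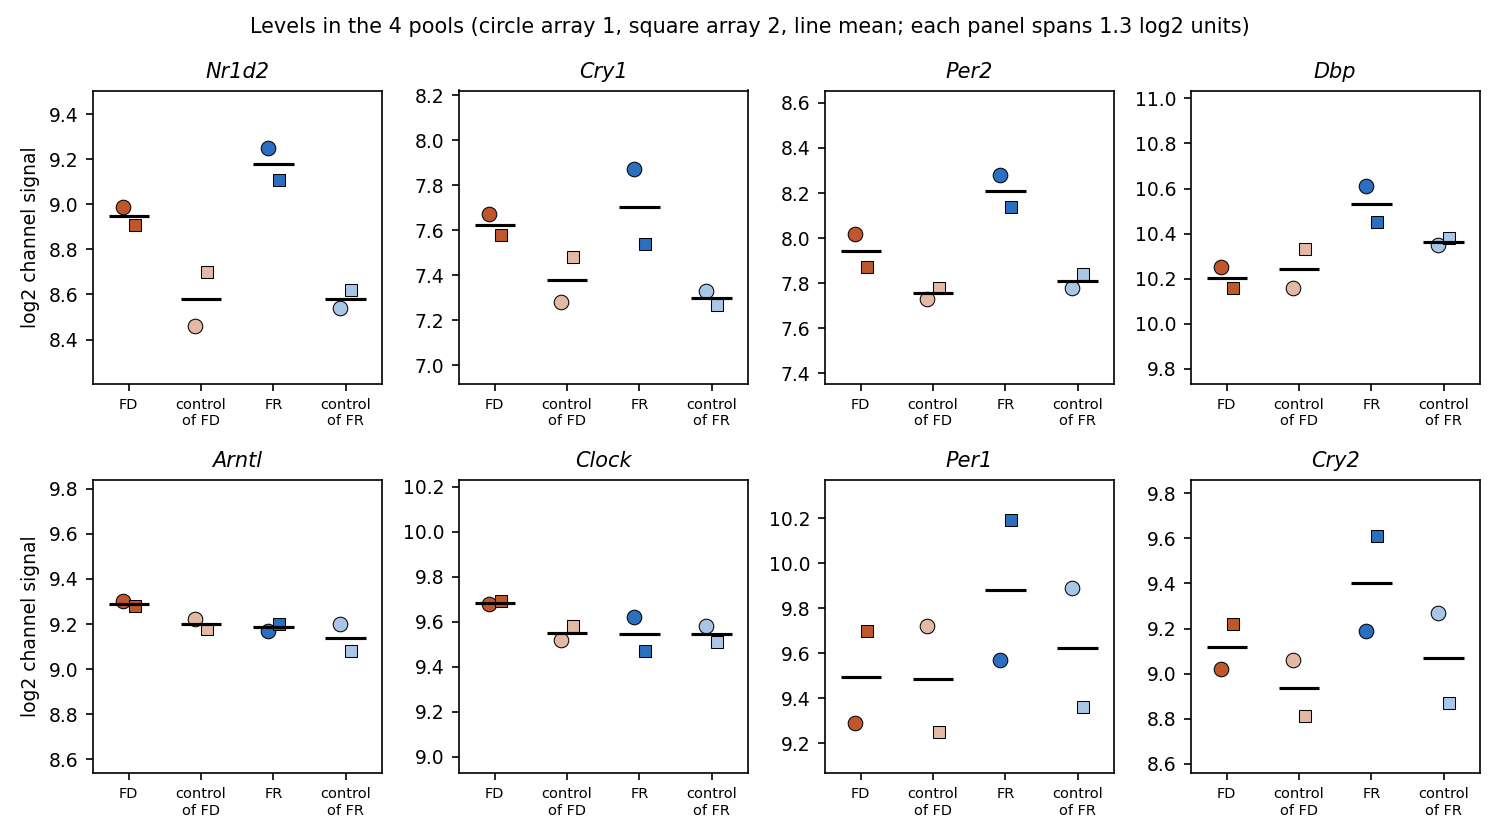
Log2 channel signal of the brightest probe of 8 clock genes in the 4 pools, on vertical axes that each span the same range. Circles are array 1, squares array 2 and lines their mean. For Nr1d2, Cry1 and Per2 both values of FD and of FR lie above those of their controls, while for Per1 and Cry2 treated and control values overlap.

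Per1 and Cry2, a further pair of repressor genes, had ratios whose sign turned with the dye orientation. Per1, whose probe is at mm9 chr11:68922878-68922937, gave -0.44 and 0.44 in FD, a mean of 0.002. In FR it gave -0.32 and 0.84, a mean of 0.26. The signs were opposite within both swaps, and treated and control levels overlapped. The levels were 9.29 and 9.70 in FD, against 9.72 and 9.25 in the control of FD, and 9.57 and 10.19 in FR, against 9.89 and 9.36 in the control of FR, so that in every pool the Cy3 reading was higher than the Cy5 reading.

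The difference between array 1 and array 2, divided by 2, measures how far a probe departs from an exact dye swap. For Per1 it was -0.44 on the FD arrays and -0.58 on the FR arrays. Of 23376 probes measured on all arrays, 10 were lower on the FD arrays and 1 on the FR arrays. For probe A_52_P248378 of Cry2, at mm9 chr2:92244363-92244422, it was -0.23 and -0.41, with 582 and 53 probes lower. Across the 23376 probes these values of FD and FR correlated at r = 0.652, a description over points that share their arrays and probes. For Nr1d2 they were 0.16 on the FD arrays and 0.11 on the FR arrays, smaller than its mean ratio of 0.37 in FD and 0.60 in FR.

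**Figure D3:**
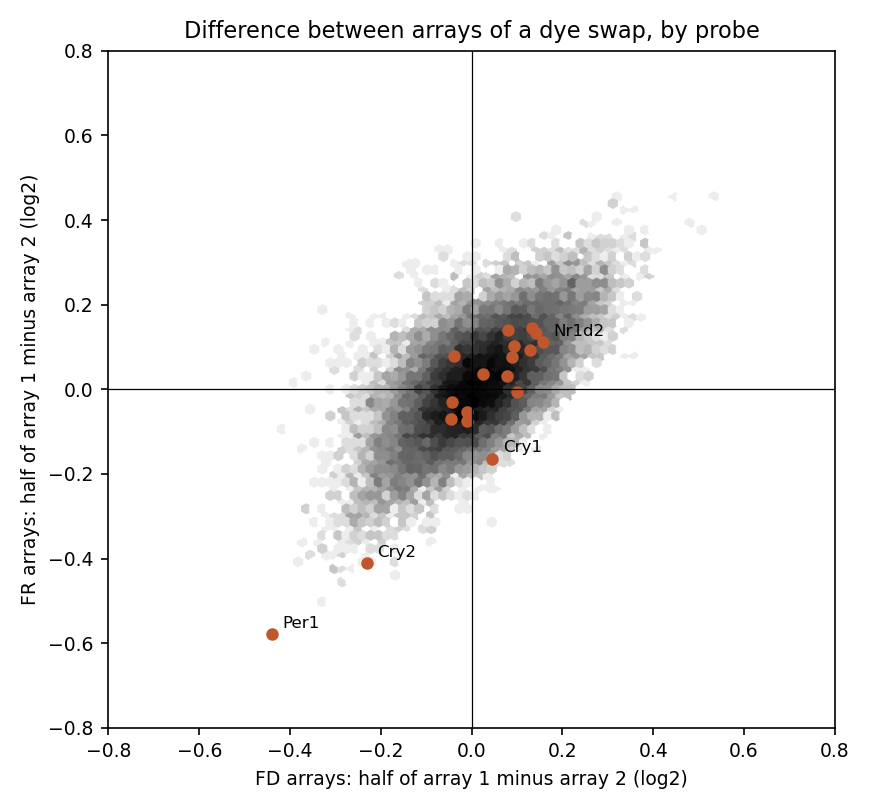
Array 1 minus array 2, divided by 2, in log2 units, on the FD arrays (horizontal axis) and the FR arrays (vertical axis). Grey hexagons are all 23376 probes measured on all arrays, darker where more probes fall (log scale), and points are clock gene probes. Per1 and 1 probe of Cry2 lie at the lower left, at -0.44 and -0.58 and at -0.23 and -0.41.

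Cry2 gave -0.043 and 0.42 in FD, a mean of 0.19, and -0.084 and 0.74 in FR, a mean of 0.33, on its brighter probe. The probe A_51_P135542, which spans 2266 bases of genome and so at least 1 intron, gave 0.11 and -0.090 in FD and 0.029 and 0.040 in FR. That probe was dim, at 1.2 to 2.0 times its local background, and its treated and control levels overlapped in FD. Means of Per1 and Cry2 over a dye swap take out a dye effect that is equal on both arrays, but on the probe used neither gene had the same sign on both arrays of its comparison with control.

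Per3 was at the limit of detection. Its probe, at mm9 chr4:150379256-150379315, gave -0.057 and -0.038 in FD, where it was not well above background in every channel, and -0.057 and 0.051 in FR. Its levels were 6.19 and 6.23 in FD against 6.25 and 6.27 in the control of FD, and 6.33 and 6.53 in FR against 6.39 and 6.48 in the control of FR. A difference in Per3 was not detectable at these signals, which were 1.2 to 2.4 times the local background.

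The activators gave small ratios on their brightest probes. Arntl, at mm9 chr7:120456978-120457037, gave 0.078 and 0.099 in FD, a mean of 0.089 or 1.06-fold, and -0.026 and 0.12 in FR, a mean of 0.049. The levels of Arntl were 9.30 and 9.28 in FD, against 9.22 and 9.18 in the control of FD, and 9.17 and 9.20 in FR, against 9.20 and 9.08 in the control of FR. FD did not overlap its control, and FR did.

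Clock had 4 probes spread over 42033 bases of the gene. In FD all 8 values were above 0, between 0.037 and 0.21, and the 4 probe means lay between 0.075 and 0.14. The brightest, A_52_P334670, gave 0.16 and 0.11 in FD, and its levels were 9.68 and 9.69 in FD against 9.52 and 9.58 in the control of FD. In FR the same probe gave 0.031 and -0.039, and its levels were 9.62 and 9.47 in FR against 9.58 and 9.51 in the control of FR.

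The other Clock probes did not share that reading in FR. The dimmest, A_52_P161365, gave 0.51 and 0.23, a mean of 0.37, at signals 1.2 to 3.2 times local background. A_52_P334677, at mm9 chr5:76641773-76641832 and close upstream of the brightest, gave 0.098 and 0.24, and A_52_P279391 gave 0.16 and 0.006. The mean ratio of Clock in FR was thus between -0.004 and 0.37 by probe.

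Dbp, the output gene of the set, overlapped its control in FD and lay above it in FR. In FD it gave 0.091 and -0.17, a mean of -0.038, and its levels of 10.25 and 10.16 in FD overlapped the 10.16 and 10.33 in the control of FD. In FR it gave 0.26 and 0.071, a mean of 0.16 or 1.12-fold, and its levels of 10.61 and 10.45 in FR lay above the 10.35 and 10.38 in the control of FR. The Dbp probe is at mm9 chr7:52965265-52965324.

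By role, the mean over the measured repressor genes Per1, Per2, Cry1 and Cry2 was 0.16 in FD, over a range of 0.002 to 0.24. With Per3 added it was 0.28 in FR, over a range of -0.003 to 0.41. The activators averaged 0.11 in FD and 0.022 in FR, and the nuclear receptors 0.19 in FD and 0.29 in FR. The activator mean in FR rests on the Clock probe at -0.004, while the other Clock probes had means between 0.084 and 0.37. The receptor means rest on different Nr1d1 probes, A_51_P223776 in FD and A_52_P130961 in FR, and in FR these had means of 0.36 and -0.024. Since Per1 and Cry2 changed sign between arrays, the repressor means rest on values that the arrays do not share.

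FD was set against FR by subtracting arrays of equal dye orientation, which takes out a dye effect of the probe that both swaps share. Of 9 members measured on all arrays, 0 passed 1.5-fold in this difference, beside 0.0717% of 16740 genes higher in FD and 0.269% lower. None passed 1.2-fold either, beside 2.88% higher and 2.46% lower. By sign alone, 2 were higher in FD on both orientations (Clock and Nr1d1) and 5 were lower (Per1, Per2, Cry1, Nr1d2 and Dbp), beside 31.2% and 30.1% of all genes. The median over the members was -0.16, against -0.001 over all genes. It turned to 0.053 with normexp fitted on all spots, where Dbp alone was lower on both orientations, Per1 had a mean of 0.053 and Cry2 one of 0.16. With median centring it was -0.069. Over all genes the median was -0.001 with normexp on all spots and 0.042 with median centring. Shares of all genes by sign were not counted under either setting.

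The 5 lower members in that difference gave means between -0.26 and -0.16. Per1 had -0.12 and -0.39, a mean of -0.26, Per2 had -0.22 and -0.20, Cry1 had -0.16 and -0.17, and Dbp had -0.16 and -0.24. For Nr1d2 the values were -0.18 and -0.27, a mean of -0.23. The higher 2 were small, with 0.13 and 0.15 for Clock and 0.14 and 0.16 for Nr1d1. For Nr1d1 the sign depends on the probe, since A_51_P223776 gave -0.30 and -0.39 and passed 1.2-fold as lower in FD. These differences contain any difference between the control pools, given here in level as control of FD minus control of FR. On the probes used it was -0.13 for Per1, -0.05 for Per2 and 0.08 for Cry1. For Nr1d2 it was 0.0, for Dbp -0.12, for Clock 0.0 and for Nr1d1, on probe A_52_P130961, -0.46. On the Per2 probe not used, A_52_P536869, it was -0.48.

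Markers of other tissues separated the control of FD from the other pools. Of 8 listed skeletal muscle genes, 7 were measured in FD, and 7 of 7 passed 1.5-fold as lower in FD, beside 0.128% of all genes. The mean log2 level over these genes was 7.99 in FD against 10.08 in the control of FD, and 8.37 in FR against 8.37 in the control of FR. Of 7 pituitary genes, 4 were measured in FD and Gh and Pomc passed as lower, beside the same share of all genes. The mean level of the pituitary genes was 7.52 in FD against 8.25 in the control of FD, and 7.46 in FR against 7.46 in the control of FR. Their part in the clock gene values of FD was not tested.

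Among 4 astrocyte genes, 3 were below 0 on both FR arrays (Gfap, Aqp4 and Gja1), beside 27.4% of all genes. Slc1a3 was above 0 on both, beside 28.3% of all genes, and the median of the 4 genes was -0.28. Their mean level was 8.02 in FR against 8.21 in the control of FR, and 8.47 in FD against 8.45 in the control of FD. Their part in the FR values was not tested. Of 7 pineal and retina genes, Crx was above background in 0 of 8 channel readings and Aanat in 1. None of 4 listed blood genes was measured.

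Further genes of the clock pathway, namely regulators, kinases, ubiquitin ligase parts and outputs, showed small values of either sign. Of 25 listed, 22 were measured in FD and 21 in FR, and 0 passed 1.5-fold on both arrays under either diet. In FD 5 of 22 were above 0 on both arrays and 7 below, beside 25.5% and 23.3% of all genes, with a median of 0.006. In FR 8 of 21 were above and 6 below, beside 28.3% and 27.4% of all genes, with a median of 0.048. Over the 21 genes measured on all arrays the mean level was 8.38 in FD against 8.40 in the control of FD, and 8.39 in FR against 8.36 in the control of FR.

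Hlf, which encodes a D-box factor related to Dbp, was the further gene with the highest mean under both diets. It gave 0.50 and 0.046 in FD, a mean of 0.27, and 0.57 and 0.15 in FR, a mean of 0.36. Its value on array 1 was well above that on array 2 in both. Tef, another factor of that family, gave 0.24 and 0.17 on its brightest probe in FD, while 2 of its other probes, also above background, had means of -0.048 and -0.061.

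Of the further list, Gsk3b and Csnk1e gave the largest differences of FD minus FR, with means of -0.55 and -0.46. Gsk3b, a kinase that acts on several clock proteins, gave -0.18 and -0.56 in FD and 0.21 and 0.15 in FR on its brightest probe. Its other probe gave -0.25 and -0.22 in FD and -0.096 and -0.10 in FR, so in FD both probes were below 0 and in FR they had opposite signs. Csnk1e, which encodes casein kinase 1 epsilon and acts on PER proteins, gave -0.39 and -0.064 in FD and 0.14 and 0.33 in FR. The second Csnk1e probe, far dimmer, had means of 0.039 in FD and 0.075 in FR. Csnk1d, its paralog, had probe means between -0.11 and 0.16 in FD and between -0.008 and 0.36 in FR over 4 probes.

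Usp2, a ubiquitin protease gene of the clock pathway, gave 0.27 and 0.16 in FD, a mean of 0.21, and a mean of 0.050 in FR. Btrc, which encodes a ubiquitin ligase part that recognises PER proteins, gave -0.15 and -0.15 in FD and -0.16 and -0.18 in FR. Its values were close on all 4 arrays, at means 1.11-fold and 1.12-fold lower. Timeless gave -0.19 and -0.090 in FD and 0.064 and 0.30 in FR. Cipc, an inhibitor of the CLOCK protein, gave -0.27 and -0.084 in FR on the probe measured there, and Wee1, a cell cycle kinase gene with clock-driven expression in mouse liver, had means of 0.075 in FD and -0.15 in FR.

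Genes of suprachiasmatic peptides and receptors gave small values of either sign. Of 11 listed, 9 were measured in FD and 8 in FR, and 0 passed 1.5-fold. Grp, a peptide of light-responsive suprachiasmatic cells that other brain regions also make, gave 0.34 and 0.51 in FD, a mean of 0.42, and 0.031 and 0.10 in FR. Prok2, an output peptide of the nucleus, gave 0.016 and -0.067 in FD and -0.34 and -0.24 in FR. Its receptor gene Prokr2 gave -0.23 and -0.13 in FD and -0.18 and -0.38 in FR. Avp gave 0.24 and -0.11 in FD and -0.16 and -0.37 in FR. Vipr2, the receptor gene for VIP, gave 0.033 and 0.21 in FD and 0.22 and 0.24 in FR on its brightest probe. Its other probes, not above background in every reading, had means of -0.034 and 0.011 in FD and of 0.018 and -0.083 in FR. Vip itself was above background in 6 of 8 channel readings and was not measured under either diet.

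The genes whose ratios over the 4 arrays came nearest to those of Nr1d2 were searched for among 13336 genes with a symbol that were measured on every array. By Euclidean distance over the 4 log2 ratios they were 9930014A18Rik at 0.069, Glmn at 0.097 and Spata24 at 0.099. Glmn, for example, gave 0.55 and 0.22 in FD and 0.77 and 0.56 in FR.

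**Figure D4:**
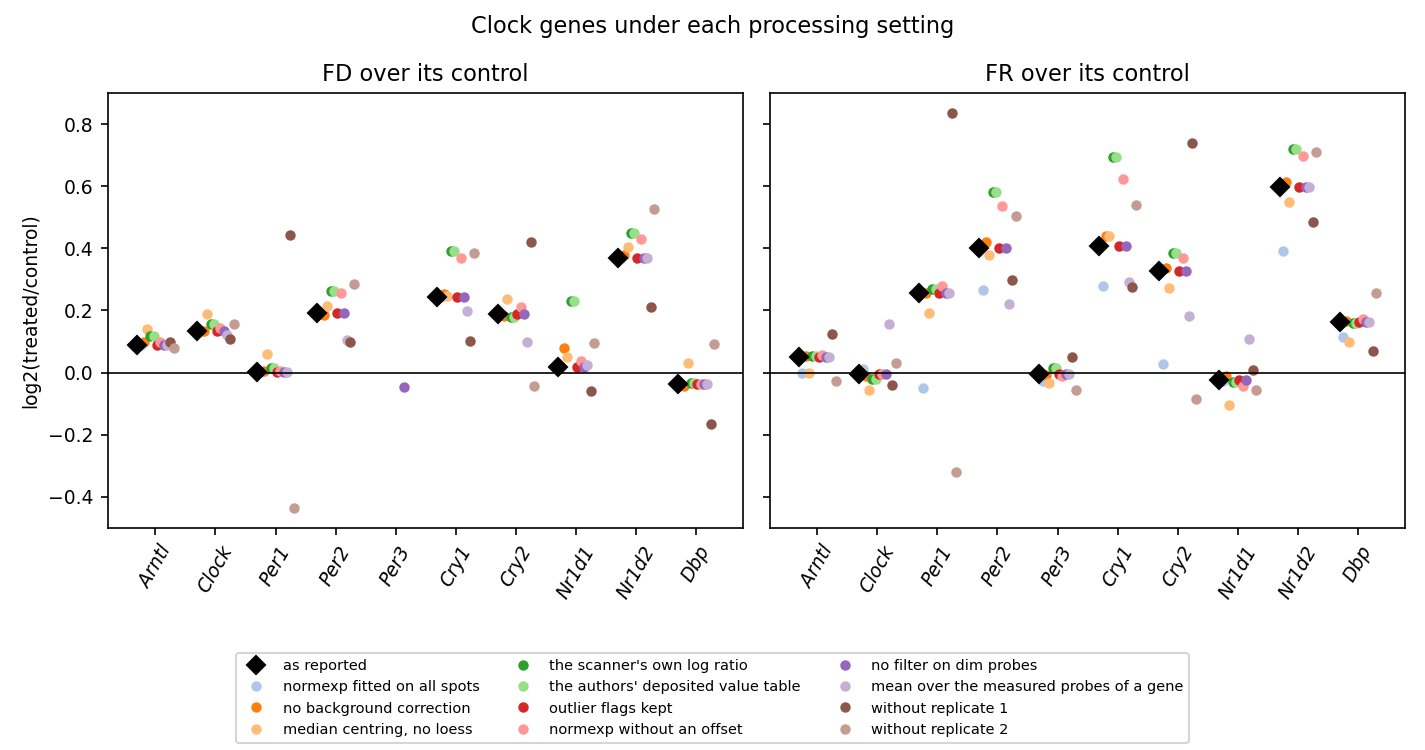
Mean log2(treated/control) of each clock gene (horizontal axis) in FD (left) and FR (right) under 12 processing settings. Black diamonds are the values reported and coloured points the alternatives. The plotted values of Nr1d2, Cry1 and Per2 lie above 0 under all 12 settings in both panels, and several settings share equal values. Per1 falls on either side of 0 when 1 array is left out.

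The mean, or the one array left, of Nr1d2, Cry1 and Per2 was above 0 under 12 of 12 settings in FD and in FR. These settings are not independent, and several returned equal values. No member probe carried an outlier flag, so keeping flagged spots changed no member. The authors' table gave the member values of the scanner's ratio, and normexp on all spots left the FD values as reported. On array 2 alone, median centring turned Nr1d2 to -0.24 in FD and -0.17 in FR, Per2 to -0.18 in FD and -0.12 in FR, and Cry1 to -0.079 in FD. The mean of Nr1d2 ranged between 0.21 and 0.53 in FD and between 0.39 and 0.72 in FR, that of Cry1 between 0.10 and 0.39 in FD and between 0.28 and 0.70 in FR, and that of Per2 between 0.097 and 0.29 in FD and between 0.22 and 0.58 in FR. The lowest FR value of Nr1d2 came with normexp fitted on all spots, where array 2 gave 0.071. The mean, or the one array left, of Dbp was above 0 under 12 of 12 settings in FR and 2 of 12 in FD. On array 2 of FR alone, Dbp was -0.82 with median centring and -0.025 with normexp on all spots.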

How the data were processed

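RNA of whole fetal brain was measured on 4 Agilent arrays from 4 samples, 2 for FD and 2 for FR, grouped by the labels. Per the file headers, the authors deposited scanner output with a mean intensity and a median local background for each spot and channel, and flags for signal above background, saturation and outliers. A log10 ratio in the same deposited files was already background-subtracted and corrected for dye by Agilent Feature Extraction 9.5.3.1, per the submitters' processing notes and the headers. The deposited value table states no unit. On bright spots its columns matched the scanner ratio turned to log2, at r = 1 and -1, so the authors deposited log2(treated/control). Its column medians were -0.033, 0.034, -0.029 and 0.010.

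In limma 3.58.1 (R 4.3.3), 3 spots of the first FD array and 42 of the second FR array, whose local background exceeded 2 times that array's median, were left out. Normexp with an offset of 50 and loess within arrays followed. Control spots had weight 0 and were left out, as were outlier-flagged spots. Levels were also normalised between arrays (Aquantile). Code was tested on simulated data. The offset draws ratios of dim probes toward 0.

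The 10 members and all gene, marker and motif lists were chosen with earlier results of these data known. All members were described with all probes; of the further clock list, genes past 1.5-fold and the 6 with the largest absolute mean, and of the suprachiasmatic list the 3 largest, in each comparison; and the 3 genes nearest to the member with the largest mean in each comparison. Names of other genes came from identifiers for 26918 probes, from symbols for 5082, from older symbols for 817 and from the files for 8357 (GRCm38.p6 reference table, names only). Alternatives changed the background correction, normalisation, ratio source, filters, probe choice and arrays. The number of arrays and pools limits the precision.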

Additional observations from a re-analysis of the deposited data

Results flagged for a closer look

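On all arrays, 21 genes of the further clock list and 8 of the suprachiasmatic list were measured. In 4 and 1 of them, both FD arrays lay on the opposite side of 0 from both FR arrays on the probe used. The share of all genes with that pattern was not counted, so these counts cannot be set against it. The difference was not tested. The log2 ratio of FD minus that of FR was -0.55 for Gsk3b, -0.46 for Csnk1e, -0.32 for Timeless, -0.21 for Lhx1 and -0.093 for Bhlhe41. The last pair lay close to 0 on some arrays, at -0.022 for Lhx1 on array 2 of FD and at -0.013 for Bhlhe41 on array 1 of FD. The second probe of Gsk3b was below 0 in FD, with a mean of -0.24, and below 0 in FR, with a mean of -0.098. The second probe of Csnk1e had means of 0.039 in FD and 0.075 in FR. The second probe of Timeless had means of -0.30 in FD and 0.097 in FR.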

How the results depend on the processing

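No paired analysis was possible because each comparison has 1 pool on either side and comes from no test. The median of the members in FD, 0.13 as reported, was 0.19 with median centring in place of loess, 0.18 with the scanner's log ratio, 0.18 with the authors' table, 0.145 without the normexp offset (chosen after the data were seen), 0.111 without a filter on dim probes and 0.10 with the mean over the probes of a gene. With 1 array left out it was 0.096 to 0.102. In FR, 0.21 as reported, it was 0.018 with normexp on all spots and 0.003 to 0.199 with 1 array left out, the low value being that without array 2. For FD minus FR, -0.16 as reported, it was 0.053 with normexp on all spots, -0.069 with median centring and -0.094 with the mean over probes; the cause was not tested. Members past 1.5-fold in FR were 0 as reported, 1 with the scanner's ratio, 1 with the authors' table and 1 without the offset, each time Nr1d2, which without the offset also passed 1.2-fold on both FD arrays, and 1 to 2 with 1 array left out. Of the values of single members, 261 moved by no more than the spread between arrays and 47 moved by more. No member passed 1.5-fold as reported, so no call could reverse. The 261 include all values with 1 array left out, since a mean lies midway between its 2 arrays. They also include all values with outlier flags kept, which changed no member. Signs did turn, as for Cry2 in FD minus FR, from -0.14 to 0.16 with normexp on all spots. Over all genes, counts past 1.5-fold depend on the setting. In FD 16 were higher and 23 lower, 74 and 67 with the scanner's ratio, 46 and 46 without the offset and 2 and 19 with median centring. In FR 108 were higher and 80 lower, 318 and 287 with the scanner's ratio, 237 and 196 without the offset, 31 and 6 with median centring and 9 and 4 with normexp on all spots. For FD minus FR 12 were higher and 45 lower, 136 and 124 with the scanner's ratio, 64 and 96 without the offset, 31 and 35 with median centring and 2 and 26 with normexp on all spots. Signals that reach down to 1.2 or 1.3 times local background, as for Per3, Nr1d1 and 1 probe each of Clock and Cry2, limit what can be read. With 1 pool a condition, the spread between litters is unknown.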
